A study of Mus musculus with 6 samples.

Results

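The 10 genes described here encode the contractile apparatus of smooth muscle and its regulators: Acta2, Actg2, Myh11, Myl9, Tpm1, Tpm2, Cnn1, Cald1, Tagln and Lmod1. They were taken by gene symbol, and all 10 were present among the 30445 genes of the count table. Messenger RNA was sequenced from 3 kinds of mouse cells, with 2 libraries of each: induced macrophages (iMac), a myeloid-like cell complex (MCC, so named in the labels), and mouse embryonic fibroblasts (MEF). All 6 libraries carry the label wild type. The study's title concerns the reprogramming of fibroblasts to macrophages by the transcription factor c-Myc. The labels do not tell how c-Myc was delivered, whether MCC and iMac still carried it, or the strain, age and passage of the cells. The libraries held between 34389817 and 39174367 counts. No label ties the 2 libraries of a group to separate cultures, so p-values measure only the spread between these libraries, which may be technical.

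Smooth muscle contracts when myosin filaments pull on actin filaments. The smooth-muscle actins (Acta2, Actg2) and the smooth-muscle myosin heavy chain (Myh11) form these filaments, the regulatory light chain (Myl9) switches the myosin on when myosin light chain kinase phosphorylates it, and tropomyosins, calponin, caldesmon and transgelin lie along the actin. Leiomodin 1 (Lmod1) nucleates actin filaments in smooth muscle. Many of these genes carry CArG boxes, the DNA element bound by serum response factor (SRF), and are switched on by SRF with its coactivators myocardin and the myocardin-related factors. Fibroblasts in culture take up part of the same programme when they become myofibroblasts, and Acta2 is the usual marker of that state. Macrophages build their cytoskeleton from the non-muscle actins and myosins.

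Every one of the 10 genes was lower in iMac than in MEF, and Actg2, Myh11 and Lmod1 each had no counts in 1 of the iMac libraries. MCC lay between iMac and MEF by group mean for all 10. The second pattern was a difference inside groups: MEF library 1 held more of every one of the 10 genes than MEF library 2, and MCC library 1 more than MCC library 2. The marker check went with the labels of the cells. The 10 macrophage markers, among them Csf1r, Lyz2 and Itgam, summed to between 20110.5 and 23830 CPM (counts scaled to a library total of 1e6) in iMac and between 12840.3 and 13179 CPM in MCC, against 5.88 and 8.76 CPM in MEF. The 12 fibroblast markers, among them Col1a1, Pdgfra and Thy1, summed to 57.7 and 62.4 CPM in iMac and to 572 and 2389 CPM in MCC, against 15743 and 35344 CPM in MEF. MCC library 1 thus held more fibroblast-marker RNA than MCC library 2. In bulk RNA, fewer cells that express a gene and less of its RNA per cell cannot be told apart.

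The sequences that follow show why reads of the smooth-muscle actin Acta2 can be separated from those of the abundant non-muscle actins. They are the last 60 bases of each coding sequence, stop codon included, read from the GENCODE transcripts on GRCm38, the assembly also called mm10. Capitals mark the bases that differ from Acta2.
Acta2: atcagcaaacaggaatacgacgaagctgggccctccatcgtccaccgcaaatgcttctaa
Actg2: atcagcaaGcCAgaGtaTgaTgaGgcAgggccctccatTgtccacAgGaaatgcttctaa
Actb: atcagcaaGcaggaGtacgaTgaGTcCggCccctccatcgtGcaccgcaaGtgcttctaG
Actg1: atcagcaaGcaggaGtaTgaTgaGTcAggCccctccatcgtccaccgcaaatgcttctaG
In this stretch Actg2 differed from Acta2 at 11 bases, Actb at 10 and Actg1 at 9. Over the whole coding sequence, aligned from the stop codon without gaps, identity to Acta2 was 83.8% for Actg2, 82.98% for Actb and 81.6% for Actg1. Of the 50-base windows along Acta2 transcripts, 0.326% also occurred in a transcript of another gene. That share was 0.340% for Myh11 and 0% for Actg2, Myl9, Tpm1, Tpm2, Cnn1, Cald1 and Lmod1. Tagln was the exception, with 58.3% of its windows shared.

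Acta2 (chromosome 19, 34241090 to 34255590, minus strand, GRCm38), the alpha actin of vascular smooth muscle, was measured at 2.001 and 2.77 CPM in iMac and at 291 and 13.8 CPM in MCC, against 5939 and 1002 CPM in MEF, for libraries 1 and 2 in that order here and in the sentences that follow. No iMac library came near any MEF library, and the MCC libraries differed from each other more than the MEF libraries did. For iMac against MEF the log2 fold change was -10.50 ± 2.15 (SE), with an adjusted p of 0.0117 by edgeR's quasi-likelihood test with Benjamini-Hochberg adjustment over 18613 genes. For MCC against MEF it was -4.51 ± 1.64, with an adjusted p of 0.0683, which did not pass the threshold of 0.05. Actg2 (chromosome 6, 83512905 to 83536265, minus strand), the enteric smooth-muscle actin, was measured at 0 and 0.302 CPM in iMac and at 5.96 and 1.07 CPM in MCC, against 331 and 13.9 CPM in MEF. A count of 0 in iMac library 1 allows a level of up to 0.0896 CPM, the level of 3 counts, and this limit covers counting error only. Actg2 fell by 10.13 ± 2.41 on the log2 scale in iMac against MEF (edgeR, adjusted p = 0.0185). In MCC against MEF its log2 fold change of -5.61 ± 1.83 missed the threshold (edgeR, adjusted p = 0.0507).

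Myh11 (chromosome 16, 14194535 to 14291372, minus strand), whose product is the most specific marker of differentiated smooth muscle among the 10, had counts of 0 and 4 in iMac and 72 and 11 in MCC, against 8718 and 350 in MEF. In CPM these were 0 and 0.121 in iMac and 1.87 and 0.294 in MCC, against 236 and 9.02 in MEF. The 2 MEF libraries stood further apart for Myh11 than for any other of the 10 genes. Myh11 fell by 10.92 ± 2.52 on the log2 scale in iMac against MEF (edgeR, adjusted p = 0.0168) and fell by 6.81 ± 1.91 in MCC against MEF (edgeR, adjusted p = 0.0334). Myl9 (chromosome 2, 156775420 to 156781658, plus strand), the regulatory light chain, was measured at 0.299 and 0.302 CPM in iMac and at 41.3 and 2.25 CPM in MCC, against 818 and 200.1 CPM in MEF. Both iMac values rest on 10 counts. Myl9 fell by 10.71 ± 2.04 on the log2 scale in iMac against MEF (edgeR, adjusted p = 0.00959), and its log2 fold change of -4.55 ± 1.48 in MCC against MEF did not pass (edgeR, adjusted p = 0.0506).

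**Figure D1:**
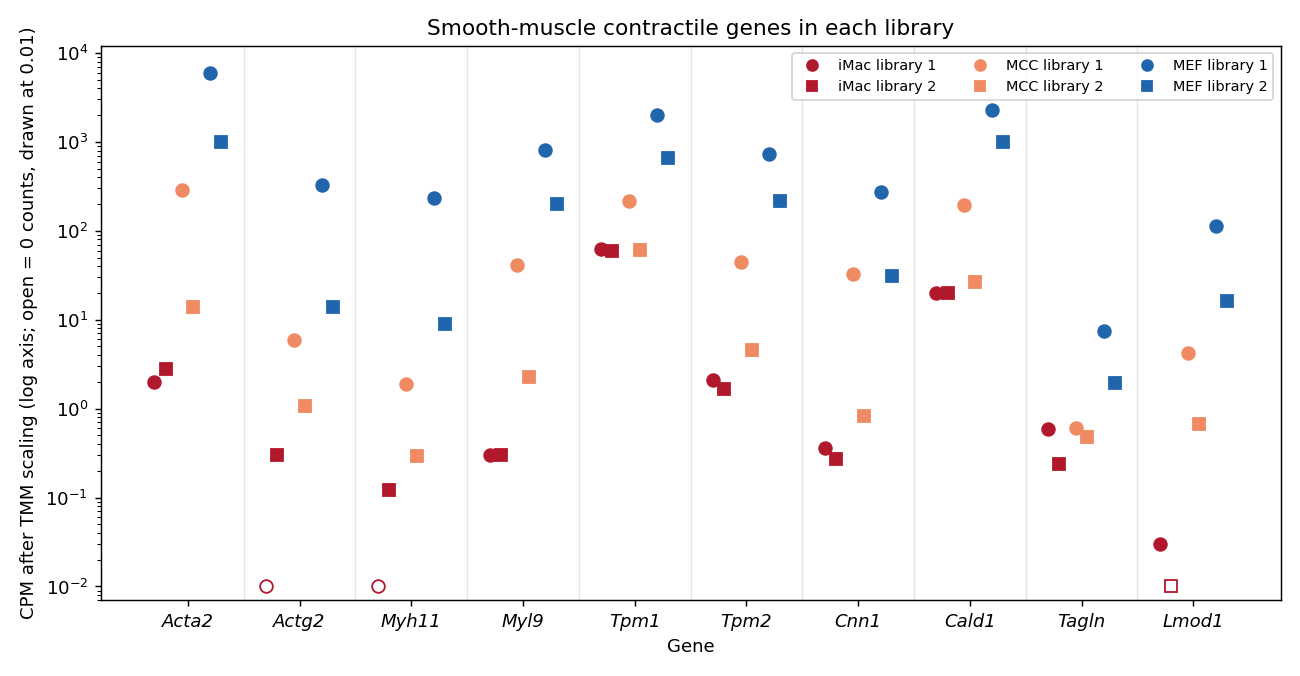
Level of each contractile gene in each of the 6 libraries, in CPM after TMM scaling on a log axis. Groups run from iMac through MCC to MEF within each gene, circles are library 1, squares are library 2, and open symbols are counts of 0 drawn at 0.01. For all 10 genes both iMac libraries lie below both MEF libraries, and the circle lies above the square in MCC and in MEF.

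As a percent of the mean MEF level, the tropomyosins and caldesmon kept more RNA in iMac than the smooth-muscle actins and Myh11 did. Tpm2 kept 0.441% and 0.350% in iMac libraries 1 and 2, against 0.0577% and 0.0799% for Acta2. By mean CPM in iMac, Tpm2 was below Acta2, at 1.87 against 2.39 CPM. Tpm1 (chromosome 9, 67022590 to 67049406, minus strand), which also encodes non-muscle isoforms, was measured at 63.2 and 59.9 CPM in iMac and at 218 and 60.2 CPM in MCC, against 2016 and 665 CPM in MEF. MCC library 2 lay between the 2 iMac libraries, so MCC and iMac overlapped for this gene. Tpm1 fell by 4.45 ± 0.86 on the log2 scale in iMac against MEF (edgeR, adjusted p = 0.0102) and fell by 3.27 ± 0.82 in MCC against MEF (edgeR, adjusted p = 0.024). Tpm2 (chromosome 4, 43514711 to 43523765, minus strand), which encodes beta-tropomyosin, was measured at 2.09 and 1.66 CPM in iMac and at 44.3 and 4.57 CPM in MCC, against 733 and 214 CPM in MEF. It fell by 7.98 ± 1.48 in iMac against MEF (edgeR, adjusted p = 0.00889) and fell by 4.28 ± 1.23 in MCC against MEF (edgeR, adjusted p = 0.0356). Cald1 (chromosome 6, 34598500 to 34775473, plus strand), the gene of caldesmon, which holds back the actin-activated myosin ATPase, was measured at 20.1 and 19.8 CPM in iMac and at 194 and 26.2 CPM in MCC, against 2298 and 1005 CPM in MEF. Its 2 MEF libraries were the closest of the 10 genes. Cald1 fell by 6.37 ± 1.16 in iMac against MEF (edgeR, adjusted p = 0.0085) and fell by 3.91 ± 1.03 in MCC against MEF (edgeR, adjusted p = 0.0282).

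Cnn1 (chromosome 9, 22099216 to 22109630, plus strand), which encodes the smooth-muscle calponin, was measured at 0.358 and 0.271 CPM in iMac and at 33.0 and 0.829 CPM in MCC, against 272 and 30.7 CPM in MEF. It was the one gene of the 10 for which the MCC and MEF ranges overlapped, since MCC library 1 lay above MEF library 2. Cnn1 fell by 8.89 ± 2.40 on the log2 scale in iMac against MEF (edgeR, adjusted p = 0.027), and in MCC against MEF its log2 fold change was -3.16 ± 1.74 (edgeR, adjusted p = 0.18). Lmod1 (chromosome 1, 135324807 to 135368065, plus strand) had counts of 1 and 0 in iMac and 163 and 25 in MCC, against 4195 and 633 in MEF, or 0.0299 and 0 CPM in iMac and 4.24 and 0.669 CPM in MCC, against 114 and 16.3 CPM in MEF. With a single count in iMac, the ratio of MEF to iMac was 4250.4, with an exact 95% counting interval of 763 to 167917. Lmod1 passed the test in iMac against MEF (edgeR, adjusted p = 0.00812), and in MCC against MEF it fell by 4.72 ± 1.31 on the log2 scale (edgeR, adjusted p = 0.0323).

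Tagln (chromosome 9, 45929619 to 45936058, minus strand), the gene of transgelin or SM22 alpha, was low in every library, with 20 and 8 counts in iMac and 23 and 18 in MCC, against 276 and 75 in MEF. These are 0.597 and 0.241 CPM in iMac and 0.598 and 0.482 CPM in MCC, against 7.48 and 1.93 CPM in MEF. Of its exon bases, 67.9% are also exon bases of Pcsk7 or of the predicted gene Gm48529 on the opposite strand, and none of the other 9 genes shares any exon base with another gene. Whether reads were counted by strand, and what became of reads in overlapping genes, is not stated, so the level of Tagln is uncertain and its low counts cannot be compared with those of the other genes. Gm48529 had 43 and 45 counts in iMac and 44 and 54 in MCC, against 240 and 58 in MEF, while Pcsk7 had between 1322 and 1673 counts in all 6 libraries. Tagln fell by 3.48 ± 0.84 on the log2 scale in iMac against MEF (edgeR, adjusted p = 0.019) and fell by 3.11 ± 0.81 in MCC against MEF (edgeR, adjusted p = 0.027). Without strand, reads from Tagln and from its opposite-strand neighbours cannot be told apart.

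Levels per kilobase of exon allow a rough comparison of different genes. The length was the union of all annotated exons, which was 12041 bases for Cald1, 6485 for Tpm1 and 2196 for Acta2. It can exceed the length of the transcripts expressed, so the level of a gene with many isoforms can be understated. On this scale Acta2 was the most abundant of the 10 in MEF at 1580.2 CPM per kb (mean of 2 libraries). Myl9 followed at 438, Tpm1 at 207, Tpm2 at 163, Cald1 at 137, Actg2 at 111, Cnn1 at 55.3, Lmod1 at 16.5 and Myh11 at 16.1 CPM per kb, without Tagln. Each of these MEF means has a large spread, since library 1 was more than 2-fold above library 2 for every gene. Neighbours in this order do not differ beyond that spread, Acta2 (SD 1590) and Myl9 (SD 376) included. Library 1 was the higher for every gene, so the spread does not settle the order within a library. The order was different in iMac, where Tpm1 led at 9.49 ± 0.367 CPM per kb, ahead of Cald1 at 1.66 ± 0.0168 and Acta2 at 1.09 ± 0.249 (SD, n = 2). Myh11 in iMac was at 0.00794 ± 0.0112 CPM per kb and Lmod1 at 0.00378 ± 0.00535 CPM per kb, levels that rest on 4 counts for Myh11 and 1 count for Lmod1 over both libraries.

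The difference between the 2 MEF libraries was shared by the whole set. Library 1 exceeded library 2 by 26.2-fold for Myh11, 23.8-fold for Actg2, 8.85-fold for Cnn1, 6.97-fold for Lmod1 and 5.93-fold for Acta2. The ratio was 4.09 for Myl9, 3.87 for Tagln, 3.42 for Tpm2, 3.03 for Tpm1 and 2.29 for Cald1. The genes most restricted to smooth muscle, Myh11 and Actg2, thus differed most, and those that also serve non-muscle cells, Cald1 and Tpm1, least. All 10 genes were more than 2-fold higher in library 1, against 5.3% of all genes tested with counts in both libraries, and the median log2 ratio was 2.30 for the 10 genes. This is a description of 2 libraries, for which no test is possible. The 2 iMac libraries were close: of the 7 contractile genes with counts in both, 6 differed by less than 2-fold, and Tagln, at 20 and 8 counts, by 2.48-fold.

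Between the MCC libraries the order of the genes was not the same. Library 1 exceeded library 2 by 39.8-fold for Cnn1, 21.1-fold for Acta2, 18.4-fold for Myl9 and 9.69-fold for Tpm2. The ratio was 7.39 for Cald1, 6.36 for Myh11, 6.34 for Lmod1, 5.57 for Actg2, 3.62 for Tpm1 and 1.24 for Tagln. Over the 10 genes 9 were more than 2-fold higher in MCC library 1, against 11.3% of all genes tested, and the median log2 ratio was 2.78. Fibroblast markers moved along in MCC, where all 12 were more than 2-fold higher in library 1 with a median log2 ratio of 3.12, whereas the macrophage markers had a median of -0.06. Other lists also stood higher in MCC library 1. The 12 genes induced by transforming growth factor beta, the signal that drives fibroblasts to myofibroblasts, had a median log2 ratio of 3.20 there, with 9 more than 2-fold higher. The striated-muscle genes had a median of 1.83, with 13 of the 18 counted in both libraries more than 2-fold higher, and the pericyte markers a median of 1.34, with 4 of 8. In MEF the fibroblast markers had a median log2 ratio of 0.53, with 4 of 12 more than 2-fold higher in library 1, and the genes induced by transforming growth factor beta had a median of 1.64, with 7 of 12. The pericyte markers had a median of 1.43 in MEF, with 6 of 9 more than 2-fold higher in library 1, and the striated-muscle genes 0.52, with 4 of 20. The transforming growth factor beta list contained Ccn2, at 1088 and 262 CPM in MEF, and Itga11, at 281 and 11.0 CPM. The part of these markers in the differences of the contractile genes was not tested.

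**Figure D2:**
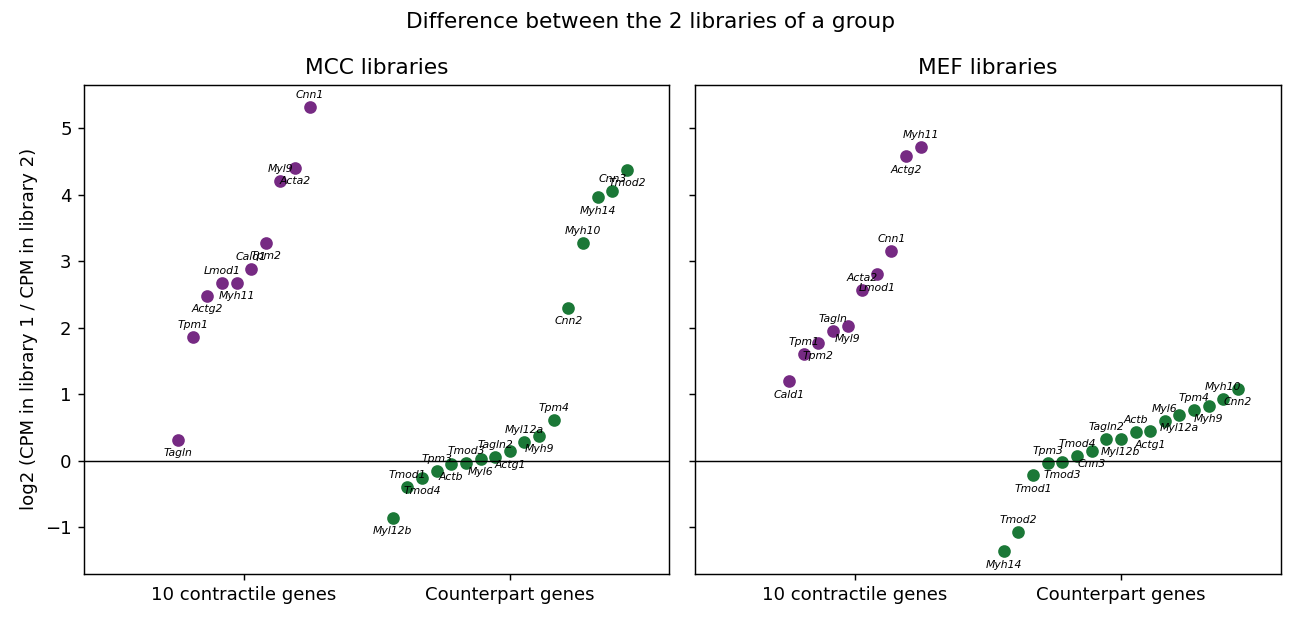
Log2 ratio of CPM in library 1 over library 2 within the MCC group and within the MEF group, for the 10 contractile genes and for the tested genes of the counterpart list. In MEF all 10 contractile genes lie above 1 and the counterparts centre at 0.33, and in MCC 9 of 10 contractile genes lie above 1 while the counterparts centre at 0.14 with 5 genes above 1.

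The counterparts are 19 relatives of the contractile genes, most of them the actins, myosins, tropomyosins and calponins of non-muscle cells. The list also holds Lmod2, Lmod3, Tmod1, Tmod2 and Tmod4, which are known chiefly from muscle, nerve or red blood cells, and Lmod2 and Lmod3 were too low to be tested. The counterparts showed this split less in MEF, where 12 of 17 tested were higher in library 1 by any amount. Only 1 of the 17 was more than 2-fold higher in MEF library 1, against 5.3% of all genes tested. The median log2 ratio of the counterparts was 0.33, against -0.00446 for all genes. In MCC 5 of 17 were more than 2-fold higher in library 1, against 11.3% of all genes tested, and the median log2 ratio was 0.14. The 5 were Cnn2, Cnn3, Myh10, Myh14 and Tmod2. These 5 genes are named after their values were seen, and they were also lower in MCC than in MEF by the test.

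Shares within a gene family, computed per kilobase of exon, show the balance of the contractile genes and their relatives in each library. This is not a split of muscle from non-muscle forms. The relatives include the striated-muscle actins Acta1 and Actc1, and counts of Tpm1 include its non-muscle isoforms. They depend on the same union lengths. Acta2 and Actg2 together made up 0.0443% and 0.0717% of the 6 actins in iMac and 6.50% and 0.355% in MCC, against 53.8% and 20.3% in MEF. More than 50 of every 100 length-scaled actin transcripts were thus smooth-muscle actin in MEF library 1, and fewer than 1 in iMac. Without division by length the share was 48.6% and 17.2% of counts in MEF, and 0.0364% and 0.0566% in iMac. Actb, the cytoplasmic beta actin, accounted for 75.1% and 75.4% of actins in iMac and for 69.6% and 76.8% in MCC, against 29.0% and 50.7% in MEF. The level of Actb was 4132 and 4105 CPM in iMac and 3915 and 4041 CPM in MCC, against 4208 and 3113 CPM in MEF, and its log2 fold change for iMac against MEF was 0.17 ± 0.18 (edgeR, adjusted p = 0.463), a sign that turned when MEF library 2 was left out. Actg1, the other cytoplasmic actin, had shares of 24.9% and 24.5% in iMac and 23.6% and 22.8% in MCC, against 16.6% and 28.8% in MEF. The share of Actg1 is uncertain, because 37.4% of its 50-base windows occur in transcripts of other genes, chiefly pseudogenes. The shares of the other actins, Acta2 and Actg2 included, depend on it and are uncertain in level too.

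Myh11 made up 0% and 0.0335% of the 4 class II myosin heavy chains in iMac and 0.327% and 0.0710% in MCC, against 10.03% and 0.749% in MEF. Without division by length the Myh11 share in MEF was 6.45% and 0.467%. The non-muscle heavy chain gene Myh9 filled nearly all of the rest in iMac. For Myh11 in iMac library 1, where no read was counted, the Wilson 95% interval reaches 0.0302%, and such intervals cover counting error only. Myl9 made up 1.88% and 1.92% of the regulatory light chains in iMac and 67.6% and 11.8% in MCC, against 92.5% and 82.97% in MEF. This share is uncertain in level, since 21.1% of the windows of Myl12a and 35.2% of those of Myl12b occur in transcripts of other genes, and without division by length the mean was 0.670% in iMac, against 72.0% in MEF. Tpm1 and Tpm2 made up 5.001% and 5.02% of the tropomyosins in iMac and 18.0% and 5.43% in MCC, against 50.7% and 33.3% in MEF, while Tpm3, a tropomyosin of most cells, had 47.4% and 49.9% in iMac, against 6.37% and 13.7% in MEF. Cnn1 made up 2.62% and 2.33% of the calponins in iMac and 23.2% and 4.74% in MCC, against 15.6% and 3.25% in MEF. In the calponin family iMac and MEF library 2 were thus near each other, since Cnn2 and Cnn3 were lower in iMac too. These shares are also uncertain in level, since 23.2% of the windows of Tpm3, 15.7% of those of Tpm4 and 24.0% of those of Cnn3 occur in transcripts of other genes.

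**Figure D3:**
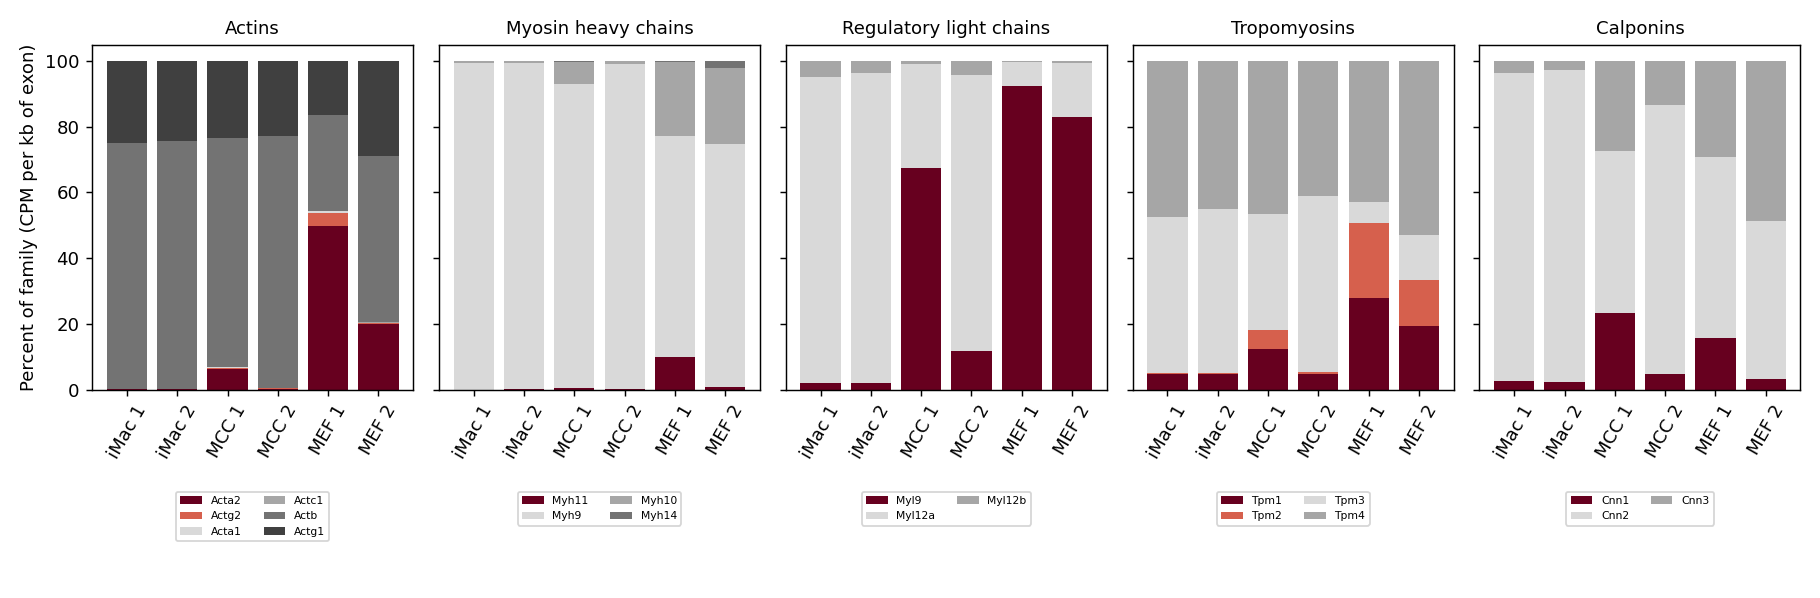
Share of each gene in its family, in percent of CPM per kilobase of exon, for 5 families and the 6 libraries from iMac 1 to MEF 2. Dark and light red are the contractile genes and greys are their relatives, among them the striated-muscle actins. The red part of the actin bars is 53.8% in MEF 1 and 20.3% in MEF 2 and is under 0.1% in both iMac libraries.

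For iMac against MEF all 10 genes passed the test as lower. Of all 18613 genes tested, 32.4% were called lower. The median log2 fold change was -9.51 for the 10 genes and -0.06 for all genes tested. The groups did not overlap for any of the 10, against 43.5% of all genes that were lower without overlap. With either iMac library 1 or iMac library 2 left out no member passed, while the log2 fold changes stayed far below 0. That of Acta2 was -10.27 without iMac library 1 and -10.74 without iMac library 2, and that of Cald1 was -6.36 and -6.34. The adjusted p-values by edgeR's quasi-likelihood test then ran from 0.0592 to 0.133 without iMac library 1 and from 0.0632 to 0.14 without iMac library 2, and the count over all genes was 5173 or 5197, against 10717 with all libraries. Without MEF library 1, the library with the highest levels, 8 of the 10 still passed beside 4800 of all genes called lower, with log2 fold changes from -9.78 for Lmod1 to -3.43 for Tpm1, and Tagln (edgeR, adjusted p = 0.0543) and Cnn1 (edgeR, adjusted p = 0.0724) did not. With limma-voom 4 passed, namely Acta2, Tpm1, Tpm2 and Cald1, against 31.6% of all genes called lower.

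For MCC against MEF 6 genes passed as lower, namely Tagln, Tpm1, Tpm2, Myh11, Cald1 and Lmod1. Of all genes tested, 29.6% were called lower. Acta2, Actg2, Myl9 and Cnn1 did not pass. DESeq2 called 9 of the 10, all but Cnn1, against 32.4% of all genes called lower by that tool. With a replicate block edgeR called all 10, beside 5060 of all genes called lower, although no label pairs the libraries. When only the groups compared were fitted, 0 of the 10 were called, beside 3930 of all genes called lower. The groups did not overlap for 9 of the 10, against 42.4% of all genes that were lower without overlap. The median log2 fold change was -4.39 for the 10 genes and -0.05 for all genes. Leaving out MEF library 1 ended all 6 calls, while 3851 of all genes were still called lower: the log2 fold changes then ran from -3.19 for Myl9 to -0.85 for Cnn1, and the lowest adjusted p was 0.083 for Tpm1 by edgeR. Leaving out iMac library 1 or iMac library 2, which share in the estimate of the spread, left Tagln alone past the threshold. Without MCC library 1 the test called 7 of the 10, while 4976 of all genes were called lower, and the log2 fold changes of Acta2 and Myl9 were then -7.96 and -7.81. Without MCC library 2 these were -3.45 and -3.50, and 4 of the 10 passed, while 3983 of all genes were called lower.

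For iMac against MCC edgeR called none of the 10 genes. Of all genes tested, 0.0107% were called lower by edgeR, or 2 genes. Lower at an unadjusted p under 0.05 by edgeR were 5 of the 10 genes and 10.5% of all genes tested. DESeq2 called 5 lower, namely Acta2, Cnn1, Myl9, Tpm2 and Lmod1. Of the genes to which it gave an adjusted p, 10.3% were called lower. With limma-voom 0 were called, against 0.242% of all genes called lower. The log2 fold changes ran from -0.36 ± 0.84 for Tagln to -7.06 ± 2.22 for Lmod1, which rests on 1 count in iMac, with a median of -4.31, against -0.02 for all genes. For 8 of the 10 both iMac libraries were below both MCC libraries, against 27.9% of all genes, and Tagln and Tpm1 overlapped. Leaving out MCC library 2 brought 4 genes past the threshold, namely Acta2 (edgeR, adjusted p = 0.0321), Myl9 (edgeR, adjusted p = 0.0238), Tpm2 (edgeR, adjusted p = 0.034) and Cald1 (edgeR, adjusted p = 0.0236). Over all genes that setting called 1136 lower, against 2 with all libraries. Since MCC and iMac are compared with the same MEF libraries, the comparisons against MEF are not independent of each other.

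**Figure D4:**
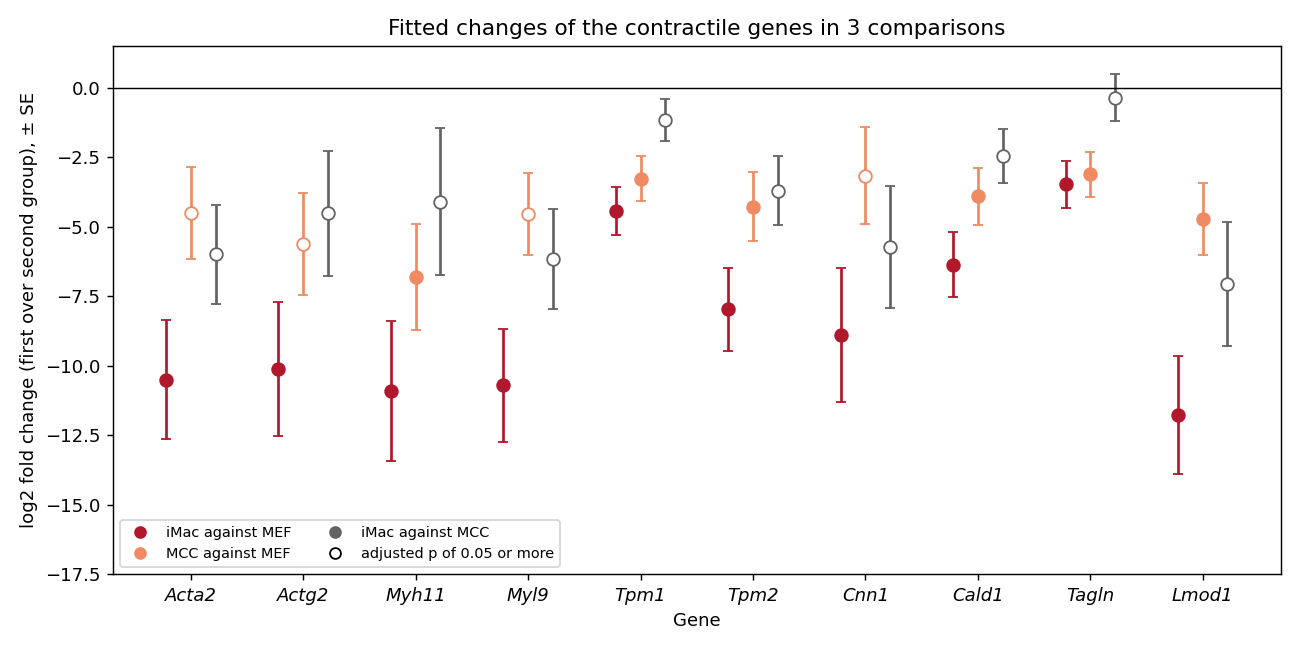
Log2 fold change with its standard error for each contractile gene in iMac against MEF, MCC against MEF and iMac against MCC, from 1 edgeR fit of 6 libraries. Filled points passed an adjusted p of 0.05; all 10 did for iMac against MEF, 6 did for MCC against MEF and 0 did for iMac against MCC, and the value of Lmod1 in iMac rests on 1 count.

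Of the 13 genes listed as SRF, its cofactors and other regulators of the contractile genes, all were tested, with 10 lower and 1 higher in iMac against MEF, and 9 lower and 0 higher in MCC against MEF. Of all genes tested, 32.4% were called lower and 25.1% higher in iMac against MEF, and 29.6% and 23.4% in MCC against MEF. Srf itself was measured at 51.6 and 49.3 CPM in iMac and 57.0 and 47.7 CPM in MCC, against 77.8 and 62.7 CPM in MEF, and fell by 0.48 ± 0.15 on the log2 scale in iMac against MEF (edgeR, adjusted p = 0.0442). Myocd, the gene of myocardin, had counts only in MEF, at 2.47 and 1.13 CPM, and in MCC library 1, at 0.702 CPM. With no count in either iMac library it was at least 39.6-fold lower in iMac than in MEF against a limit of 3 counts over the group, and it did not pass the test (edgeR, adjusted p = 0.0518). Of the myocardin-related genes, Mrtfb fell by 0.41 ± 0.11 in iMac against MEF (edgeR, adjusted p = 0.0271), and Mrtfa had 104 and 88.1 CPM in iMac and 62.4 and 69.5 CPM in MCC, against 95.6 and 68.7 CPM in MEF (edgeR, adjusted p = 0.347 for iMac against MEF). The sign of the Mrtfa difference turned when MEF library 2 was left out.

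Other regulators stood much lower. Tead1, which encodes a factor that binds MCAT elements, was measured at 0.358 and 0.332 CPM in iMac and 30.4 and 2.11 CPM in MCC, against 450.2 and 339 CPM in MEF, and fell by 10.15 ± 1.63 on the log2 scale in iMac against MEF (edgeR, adjusted p = 0.006). Its 2 MEF libraries were within 2-fold of each other, unlike those of the contractile genes. Fhl2, a LIM-domain cofactor, had 3 counts over both iMac libraries, and the ratio of MEF to iMac was 2218, with a counting interval of 759 to 10759. Fhl2 was at 163 and 40.0 CPM in MEF, a split like that of the contractile genes. Foxo4 was the one regulator called higher, at 40.6 and 40.8 CPM in iMac, against 26.8 and 26.9 CPM in MEF (edgeR, adjusted p = 0.00697). Klf4 and Elk1, on the same list, had lower means in iMac. Klf4 averaged 6.45 CPM in iMac, against 110 CPM in MEF, and Elk1 22.2 CPM, against 41.7 CPM. Without iMac library 1 or iMac library 2 fewer regulators were called in iMac against MEF, as were fewer of all genes. The same held in MCC against MEF with either MEF library or either iMac library left out.

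Of 35 other genes of smooth muscle and contraction, all tested, 30 were lower and 0 higher in iMac against MEF, and 26 were lower and 1 higher in MCC against MEF. Of all genes tested, 32.4% were called lower and 25.1% higher in iMac against MEF, and 29.6% and 23.4% in MCC against MEF. The median log2 fold change of the 35 was -3.16 in iMac against MEF and -2.62 in MCC against MEF. Both were nearer to 0 than those of the 10 contractile genes. Mylk, the gene of the kinase that phosphorylates the product of Myl9, was measured at 0.0299 and 0.241 CPM in iMac and 3.41 and 0.241 CPM in MCC, against 128 and 27.1 CPM in MEF, and fell by 9.13 ± 1.85 on the log2 scale in iMac against MEF (edgeR, adjusted p = 0.0114). Synpo2, which encodes the actin-bundling protein synaptopodin 2, had no counts in iMac and was at least 469-fold lower there than in MEF. Kcnmb1, the smooth-muscle subunit of a calcium-activated potassium channel, and Ppp1r14a, an inhibitor of myosin phosphatase, also had no counts in iMac, and were at least 84.8-fold and 109-fold lower there than in MEF. Ppp1r12b, a targeting subunit of myosin phosphatase, went the other way in MCC, where it was at 118 and 193 CPM, against 53.2 and 30.8 CPM in MEF (edgeR, adjusted p = 0.0106). With iMac library 1 or iMac library 2 left out, fewer of the 35 were called in iMac against MEF, as were fewer of all genes.

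Of the 17 counterparts tested, 12 were lower and 3 higher in iMac against MEF, and 12 were lower and 1 higher in MCC against MEF. Of all genes tested, 32.4% were called lower and 25.1% higher in iMac against MEF, and 29.6% and 23.4% in MCC against MEF. The median log2 fold change of the 17 counterparts was -1.38 in iMac against MEF. The non-muscle heavy chain Myh9 fell by 1.75 ± 0.31 (edgeR, adjusted p = 0.00774), the essential light chain gene Myl6 by 1.38 ± 0.21 (edgeR, adjusted p = 0.00502) and Tpm4 by 2.01 ± 0.33 (edgeR, adjusted p = 0.0065) in that comparison. Myh10, the other main non-muscle heavy chain of fibroblasts, fell by 7.65 ± 1.31 (edgeR, adjusted p = 0.00711), further than Tpm1, Cald1 and Tagln but less than the other 7 contractile genes. The 3 counterparts called higher were Tpm3, by 0.46 ± 0.10 on the log2 scale (edgeR, adjusted p = 0.0146), and the tropomodulin genes Tmod1 and Tmod4, which cap actin filaments. With iMac library 1 or iMac library 2 left out fewer counterparts were called, as were fewer of all genes.

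**Figure D5:**
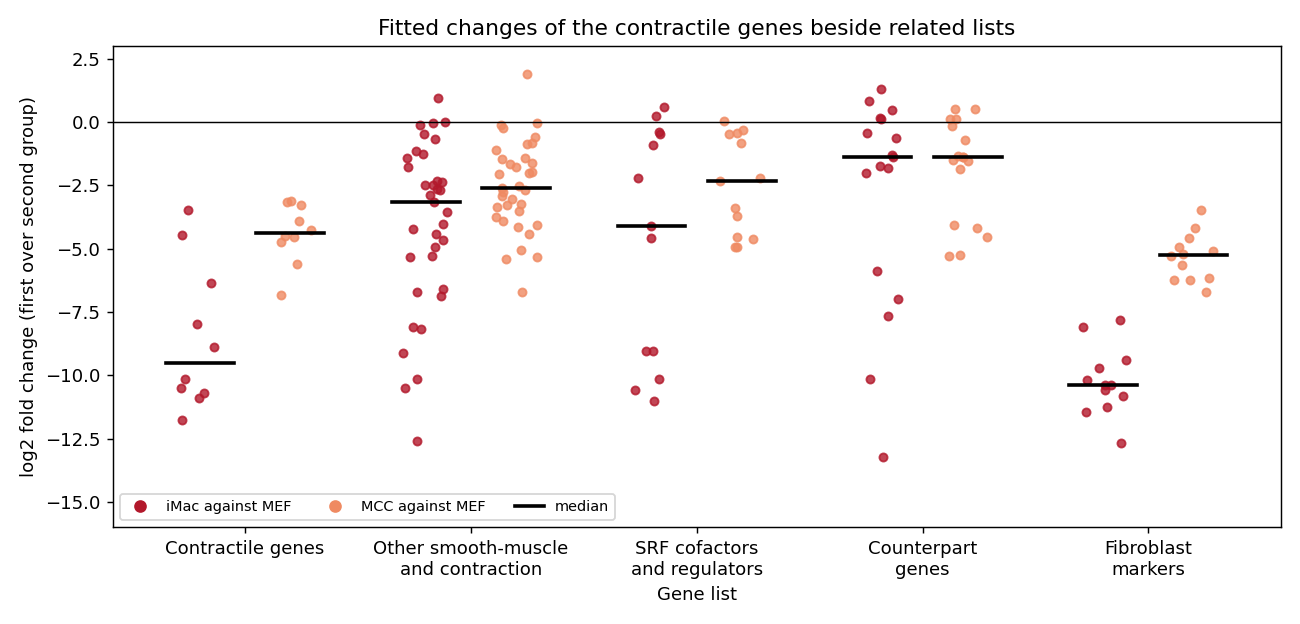
Log2 fold changes of the tested genes of 5 lists in iMac against MEF and in MCC against MEF, with the median of each list as a bar. The contractile genes have medians of -9.51 and -4.39, between those of the fibroblast markers (-10.39 and -5.27) and those of the counterparts (-1.38 and -1.40).

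Markers of other cell types that express parts of this set were measured beside it. Of all genes tested, 32.4% were called lower and 25.1% higher in iMac against MEF, and 29.6% and 23.4% in MCC against MEF. Of 20 tested genes of striated muscle, 10 were lower and 2 higher in iMac against MEF, and the summed level of all 25 in the table was 12.7 and 16.4 CPM in iMac and 57.4 and 20.8 CPM in MCC, against 173 and 42.1 CPM in MEF. Acta1, the skeletal actin, was at 0.508 and 0.874 CPM in iMac, against 47.1 and 2.96 CPM in MEF, while Myod1, Ckm, Myh6, Tnnc2 and Nkx2-5, which define skeletal or cardiac muscle, were under 1 CPM in every library. Other genes of that list were higher than these. Those under 1 CPM, and Des and Myh3 among the higher ones, are named after their values were seen. The level of Tnnc2 is uncertain like that of Tagln, since 74.0% of its exon bases are also exon bases of Ube2c on the opposite strand. In MCC libraries 1 and 2 Myod1 stood at 325% and 16.7% of the mean MEF level, and Ckm at 832% and 132%. Their MEF means were only 0.160 and 0.0407 CPM. Pax7 averaged 1.66 CPM in MEF and had no counts in MCC or iMac. Des, which smooth muscle and pericytes also express and which stands in those lists too, was at 0.269 and 0.724 CPM in iMac and 10.04 and 2.73 CPM in MCC, against 89.8 and 14.5 CPM in MEF. Myh3, an embryonic myosin heavy chain, was at 7.07 and 2.01 CPM in MCC, against 4.42 and 2.70 CPM in MEF. Tnni2, a skeletal troponin, was called higher, at 5.26 and 6.09 CPM in iMac, against 0.217 and 0.180 CPM in MEF (edgeR, adjusted p = 0.000562). In MCC against MEF 1 of the 20 was lower and 2 were higher, and as a percent of the mean MEF level their median was 131% in MCC library 1 and 33.2% in MCC library 2. Of 9 pericyte markers 7 were lower and 1 higher in iMac against MEF, and their sum was 279 and 188 CPM in iMac and 200 and 173 CPM in MCC, against 955 and 471 CPM in MEF. The aminopeptidase gene Anpep, which macrophages also express, supplied 274 and 180 CPM of the iMac sums. Rgs5, a defining pericyte gene, was at 0 and 0.0302 CPM in iMac, against 15.1 and 5.23 CPM in MEF. All 12 fibroblast markers were lower in iMac against MEF, with a median log2 fold change of -10.39, and all 12 genes induced by transforming growth factor beta were lower as well, with a median of -7.73. As a percent of the mean MEF level, the contractile genes had medians of 0.148% and 0.177% in iMac and 8.88% and 0.793% in MCC, and the fibroblast markers 0.0888% and 0.0538% in iMac and 4.53% and 0.465% in MCC. The part of pericytes, striated muscle cells or remaining fibroblasts in the contractile values was not tested.

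The genes outside the set whose pattern over the 6 libraries was most like its median pattern, among 7721 genes averaging 20 CPM or more in MEF, were Tll1, Ccdc80, Mfap5, Fbln2, Galnt18, Prss23, Itga11 and Npr3. Likeness was the root-mean-square distance of centred log2 CPM, which was 0.364 for Tll1 and 0.54 for Npr3. Among the 10 contractile genes the same distance ran from 0.486 for Tpm2 to 2.26 for Tagln. The 8 genes were picked as the nearest, so their distances are low by choice. Ccdc80, a secreted matrix protein gene, was at 0.567 and 0.513 CPM in iMac and 25.0 and 1.95 CPM in MCC, against 787 and 71.3 CPM in MEF.

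The sequences upstream of the start sites were searched for the elements these genes are known for, since all 10 were lower in iMac than in MEF. RefSeq promoter windows on GRCm38.p6 ran from 250 bases before to 50 bases after the start. They were given for all but Myh11, Actg2 and Tagln, that is for 7 of the 10 genes. A CArG box without a mismatch was found in 1 of their 8 windows, that of Myl9, and in 1.63% of all 32851 windows. With 1 base changed it was found in 5 of the 8 windows of these genes (Cald1 has 2 windows), against 19.9% of all windows. The MCAT element, CATTCC or GGAATG on either strand, was found in 4 of the 8 windows, against 14.7% of all windows. The matches of the 2 elements do not overlap in these windows. The windows of Tpm2 and Cnn1, which were also lower in iMac, held neither element, even with 1 base changed in the CArG box. The same was true of 1 of the 2 Cald1 windows. Only some of the matches are shown. The stretches shown carry the element in capitals, 5′ to 3′ on the strand of the gene, and belong to an actin, a light chain and an actin nucleator that were each far lower in iMac than in MEF.
Myl9 CArG box, first base at -161 from the start: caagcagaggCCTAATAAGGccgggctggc
Acta2 CArG box with 1 base changed, at -84: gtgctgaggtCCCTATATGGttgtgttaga
Lmod1 CArG box with 1 base changed, at -164: ctgctctgtaCTAAATTTGGtcacgcagcg
Lmod1 MCAT, at -130: ccaagattccctGGAATGtcctcaagtttc
Acta2 MCAT, at -146: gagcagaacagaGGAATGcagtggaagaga
The Myl9 stretch lies at chromosome 2, 156775293 to 156775322 (plus strand), the Acta2 stretches at chromosome 19, 34255438 to 34255467 and 34255502 to 34255531 (minus strand), and the Lmod1 stretches at chromosome 1, 135324639 to 135324668 and 135324671 to 135324700 (plus strand). The GENCODE annotation of Acta2 begins 217 bases before the RefSeq start used here, and both Acta2 stretches lie in that annotated exon sequence. A match is a description of the letters and does not show that SRF or a TEAD factor binds there. In iMac against MEF Myl9 fell by 10.71 and Acta2 by 10.50 on the log2 scale, while Srf fell by 0.48 and Tead1 by 10.15. The fibroblast markers had a median of -10.39 in that comparison, and the Myl9 window held no MCAT element. The part of Srf or Tead1 in these changes was not tested.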

How the data were processed

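RNA was sequenced from 6 mouse libraries in 3 groups of 2. The authors deposited raw counts per gene; the submitters' processing notes name STAR, featureCounts and the mm10 build. Versions, annotation, strand setting and the treatment of multiply matching reads are not stated there. Per the labels' protocols, RNA was extracted with Trizol and an mRNA library kit was used.

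Counts were used as deposited. edgeR 4.0.16 in R 4.3.3 was run on all 6 libraries (filterByExpr, TMM, two-sided quasi-likelihood test, group as the only term, 3 residual degrees of freedom), with Benjamini-Hochberg adjustment over the 18613 genes that passed the filter, which removed 11832. The threshold was 0.05. Standard errors are the log2 fold change over the root of its F value. CPM uses TMM-scaled totals; CPM per kilobase uses the union of exons in GENCODE on GRCm38. The detection limit was 3 counts. All 10 contractile genes passed the filter. The fit was tested on simulated data in which the spread between libraries was capped. That test does not cover genes whose libraries differ as much as those of the contractile genes. Alternatives were median-ratio size factors, unscaled totals, DESeq2 1.42.0, limma-voom (limma 3.58.1), no filter, at least 5 CPM in 2 libraries, only the groups compared, a replicate block and leaving out each library; with 1 library left, that group was assumed to vary like the others.

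The contractile genes and lists were chosen with earlier results of these data known. Named from other lists were up to 5 called genes with the largest changes in iMac against MEF, those called against their list, and a fixed set of paralogs and SRF cofactors; not all are printed. Figures used matplotlib 3.10.9 in Python 3.11.15.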

Additional observations from a re-analysis of the deposited data

How the results depend on the processing

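Over the 14 alternatives, log2 fold changes of the 10 contractile genes against MEF never changed sign. In iMac against MEF 111 of 139 alternative values kept their call and 28 lost it, and in MCC against MEF 91 stayed on the same side of the threshold, 32 lost their call and 16 gained one. In iMac against MCC, where none was called, 128 stayed uncalled, 9 gained a call, and the sign turned for Tagln without iMac library 2 (0.15, with -1.15 without iMac library 1) and for Tpm1 without MCC library 1 (0.0070, with -1.96 without MCC library 2). The stricter filter removed Tagln.

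The number of contractile genes called in MCC against MEF, 6, was 0 when only the groups compared were fitted and 10 with a replicate block, and leaving out 1 library gave 0 to 7. In iMac against MEF the 10 became 4 with limma-voom and 0 to 10 on leaving out 1 library, and the count over all genes ran from 5173 to 10695. In iMac against MCC the 0 became 5 with DESeq2 and 0 to 4 on leaving out 1 library. The 4 genes called there in all became 2734 with DESeq2, 146 with limma-voom, 89 without a filter, 1364 when only the groups compared were fitted, 0 with the replicate block and 0 to 1202 on leaving out 1 library. Leaving out 1 library of 6 leaves 2 residual degrees of freedom; other causes were not tested. Replicate numbers are not said to pair libraries, and deviations of same-numbered libraries correlated at 0.131 for MCC and MEF, -0.00688 for iMac and MEF and 0.00226 for iMac and MCC. Leaving out 1 library, the log2 fold change ran from -0.027 to 0.36 for Actb in MCC against MEF, from -0.056 to 0.41 for Actb in iMac against MEF and from -0.015 to 0.49 for Mrtfa in iMac against MEF, each lowest without MEF library 2 and highest without MEF library 1.

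Without division by length, mean family shares were 0.670% in iMac and 72.0% in MEF for Myl9 (1.90% and 87.8% with it), 7.30% in iMac and 55.2% in MEF for Tpm1 and Tpm2 (5.01% and 42.0%), and 2.73% in iMac for Cnn1 (2.48%). The median log2 fold change of all genes in iMac against MEF ran from -0.21 without a filter to 0.04 with the strict filter, small beside the contractile genes' changes. At these depths levels under 0.0905 CPM, or 3 counts, cannot be told from 0 in an iMac library.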
